A study of Mus musculus with 12 samples.

Results

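The genes described here are 9 genes grouped under the synthesis and degradation of retinoic acid. They are the aldehyde dehydrogenases Aldh1a1, Aldh1a2, Aldh1a3 and Aldh1a7, the retinoic acid hydroxylases Cyp26a1, Cyp26b1 and Cyp26c1, and Rdh10 and Dhrs3, which interconvert retinol and retinal. They were taken by name from 54232 gene IDs counted by RNA-seq in 12 libraries of mouse eye organoids, and all 9 passed the filter on low counts that kept 17721 genes for testing. The organoids were grown from 1 embryonic stem cell line that carries a GFP knock-in at one allele of Rax, an eye field gene, and were collected at day 7. The 3 conditions, with 4 libraries each, were LDHi+lactate (the lactate dehydrogenase inhibitor GNE-140, at 20 µM for 3 days, with 25 mM sodium lactate, given as a pretreatment of 12 hours in the labels and as an addition in the presence of the inhibitor in the methods), LDHi (GNE-140 alone) and untreated control, so that every condition shares the line and its reporter. Replicate numbers 1 to 4 stand for separate experiments, and libraries of the same number deviated together, so fits with the replicate number as a block are given beside the main ones. Replicates 1 and 2 are labelled eye organoid and held 37284585 to 48271386 counts, while replicates 3 and 4 are labelled retina progenitors and held 22174002 to 29919036 counts.

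Retinoic acid is made from retinol in consecutive oxidations: RDH10 turns retinol into retinal, DHRS3 runs the opposite way and returns retinal to retinol, and ALDH1A1, ALDH1A2 and ALDH1A3 oxidise retinal to retinoic acid. The activity of ALDH1A7 on retinal was not measured here. CYP26 enzymes hydroxylate retinoic acid and so mark it for removal. In the mouse embryonic eye Aldh1a1 is known as a gene of the dorsal retina and Aldh1a3 as a gene of the ventral retina and the pigment epithelium, Aldh1a2 is used by the optic vesicle and the mesenchyme around it, and Cyp26a1 and Cyp26c1 mark a band of the retina between the sources. The check of the organoids used the eye field genes Rax and Six3. Rax averaged 24.1 ± 7.04 CPM (counts of a gene divided by the TMM-scaled library size, a level) in LDHi+lactate organoids, 6.60 ± 4.38 CPM in LDHi organoids and 26.6 ± 10.4 CPM in control organoids (SD, n = 4 each), and Six3 averaged 81.0 ± 27.3, 38.0 ± 10.2 and 88.4 ± 25.4 CPM in the same order of conditions.

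Sequences are shown where they bear on how the counts can be read. Aldh1a1 (chr19:20492715-20643465, plus strand, mm10) and Aldh1a7 (chr19:20692953-20727562, minus strand) are neighbours, 49487 bases apart with 0 annotated genes between them, and their coding sequences were identical at 1377 of 1503 aligned bases, or 91.6%. By contrast, Aldh1a1 was identical to Aldh1a2 and Aldh1a3 at 68.8% and 67.4% of aligned bases. Reads were 50 bases long, and 3.06% of the 50-base windows of Aldh1a1 transcripts and 7.49% of those of Aldh1a7 also occur in the other gene, so reads from such windows cannot be given to 1 gene. The longest identical run of the coding sequences is 100 bases, printed here with 20 bases on each side and with the identical run in capitals. It lies in exons 10 to 12 of Aldh1a1 (chr19:20624815-20630691, plus strand) and exons 7 to 9 of Aldh1a7 (chr19:20708309-20714691, minus strand).
Aldh1a1 coding bases 737 to 876: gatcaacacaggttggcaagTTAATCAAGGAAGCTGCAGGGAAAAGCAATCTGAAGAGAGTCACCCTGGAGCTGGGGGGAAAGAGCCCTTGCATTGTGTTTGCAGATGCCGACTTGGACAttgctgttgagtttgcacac
Aldh1a7 coding bases 737 to 876: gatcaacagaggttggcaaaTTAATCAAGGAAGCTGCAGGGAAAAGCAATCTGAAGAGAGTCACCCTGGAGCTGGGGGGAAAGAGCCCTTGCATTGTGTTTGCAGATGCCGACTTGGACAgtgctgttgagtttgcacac

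Promoter windows from RefSeq (GRCm38.p6, 250 bases before to 50 bases after each start) were given for 7 of the 9 members, with 10 windows in all. The 120 bases before the start of Aldh1a7 matched those before the more downstream start of Aldh1a1 at 105 positions, shown in capitals in the first pair of sequences, so the likeness of the pair reaches past the coding exons. Direct repeats of AGNTCA were searched on both strands as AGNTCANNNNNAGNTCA (named DR5, 5 bases between the repeats) and AGNTCANNAGNTCA (DR2). These letters cover the half-site of retinoic acid receptors only in part. Half-sites that begin with G were not searched, so the counts are not counts of all such elements. DR5 occurred in 0.204% of all 32851 promoter windows and in 1 of the 10 member windows, that of Cyp26a1, where it reads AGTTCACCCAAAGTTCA on the strand opposite to the gene, 32 to 16 bases before the start, and is in capitals in the third sequence. DR2 occurred in 0.107% of all windows and in 0 of the 10. A match describes letters in a window and not a bound site.
Aldh1a1 upstream, chr19:20601848-20601967, plus strand: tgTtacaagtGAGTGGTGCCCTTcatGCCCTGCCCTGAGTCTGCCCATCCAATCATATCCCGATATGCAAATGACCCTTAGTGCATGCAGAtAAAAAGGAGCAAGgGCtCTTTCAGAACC
Aldh1a7 upstream, chr19:20727557-20727676, minus strand: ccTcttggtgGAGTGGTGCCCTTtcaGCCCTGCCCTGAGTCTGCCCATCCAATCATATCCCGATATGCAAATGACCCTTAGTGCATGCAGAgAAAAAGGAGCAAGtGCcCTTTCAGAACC
Cyp26a1 upstream, chr19:37697688-37697807, plus strand: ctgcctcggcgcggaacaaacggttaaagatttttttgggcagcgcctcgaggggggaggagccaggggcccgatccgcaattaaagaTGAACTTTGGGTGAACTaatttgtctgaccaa

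Between genes, levels were compared as CPM per kb of merged exons. Aldh1a3 was the most abundant member in control organoids, with 40.3 ± 19.9 CPM per kb, followed by Cyp26a1 with 14.9 ± 9.02, Aldh1a7 with 10.3 ± 10.5, Aldh1a1 with 9.61 ± 13.2, Rdh10 with 9.08 ± 1.31, Cyp26b1 with 3.60 ± 2.82, Dhrs3 with 2.58 ± 0.601, Cyp26c1 with 1.93 ± 1.01 and Aldh1a2 with 1.06 ± 0.912 CPM per kb (SD, n = 4). The ranges of each neighbouring pair in that order overlapped, so the order of neighbours is not settled by these 4 libraries. The spread itself differed: Rdh10 ran between 7.38 and 10.3 CPM per kb over the control libraries, whereas Aldh1a1 ran between 0.229 and 28.8. With the longest transcript as the length, Aldh1a1 came second in control organoids, at 20.1 ± 27.6 CPM per kb.

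**Figure D1:**
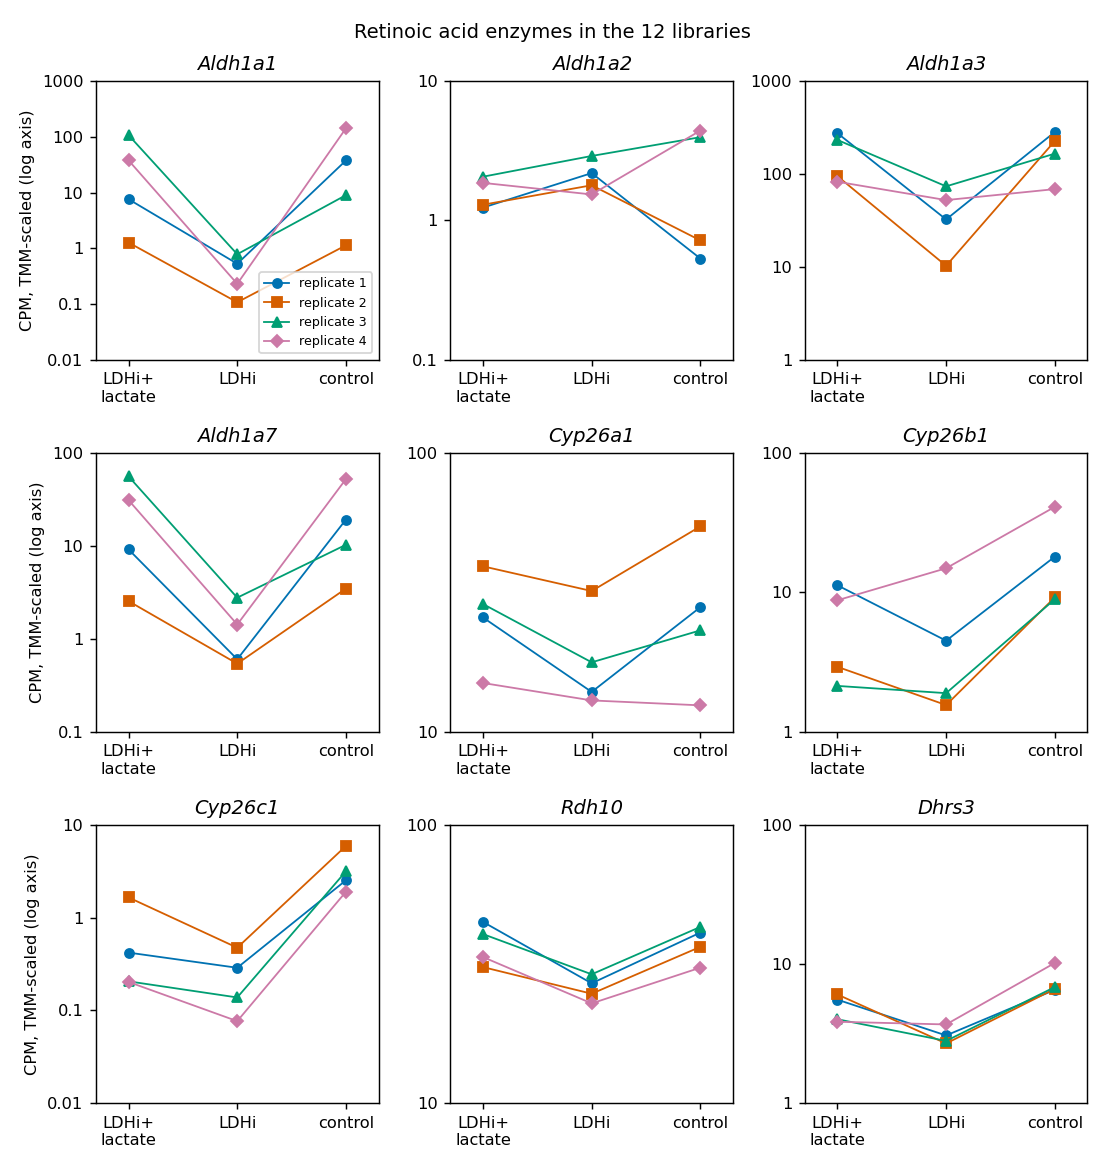
CPM of each member in the 12 libraries on log axes, with the 4 libraries of each condition as points and lines joining libraries of the same replicate number. Most lines dip at LDHi, Aldh1a1 and Aldh1a7 differ by more than 10 CPM among libraries of 1 condition, and Aldh1a2 is higher in LDHi than in control in replicates 1 and 2 and lower in replicates 3 and 4.

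Among the Aldh1a genes, Aldh1a1 was nearly lost in LDHi organoids and present again in most LDHi+lactate libraries. Aldh1a1 had 7.60, 1.27, 107 and 37.8 CPM in LDHi+lactate replicates 1 to 4, 0.528, 0.108, 0.783 and 0.230 CPM in LDHi replicates, and 37.6, 1.132, 8.99 and 142 CPM in control replicates. All 4 LDHi libraries lay under every other library, with only 5 to 22 counts each, but control and LDHi+lactate libraries differed among themselves by more than 10-fold and replicate 2 was low in both. Aldh1a1 fell by 6.93 on the log2 scale in LDHi against control organoids (SE 1.70, edgeR adjusted p = 0.0472), and was lower in all 4 replicates. The call was lost in 9 of the 12 fits that left out 1 library each, all but those without control replicate 2, LDHi+lactate replicate 2 or LDHi+lactate replicate 3, with adjusted p of 0.0207 to 0.150 over the 12, and it held with the replicate block (-6.60, adjusted p = 0.00392) and in each of its 4 fits without a replicate number. In LDHi+lactate against LDHi organoids the log2 fold change was 6.63 (SE 1.68), 5.32 to 7.04 with 1 library left out and 3.82 in replicates 1 and 2 alone, but the adjusted p was 0.659, and 0.0560 with the block, against 4.98e-05 to 1.0 over 26 alternatives. The exact permutation test of log2 CPM gave 0.0286 for either comparison, the smallest p that 4 against 4 libraries allow. RNA of whole organoids cannot tell fewer cells of a type from less RNA per cell, here or in what follows.

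Aldh1a7, the rodent neighbour and near copy of Aldh1a1, was also lowest in LDHi organoids in every replicate number. It had 9.14, 2.54, 55.8 and 31.0 CPM in LDHi+lactate replicates 1 to 4, 0.60, 0.538, 2.76 and 1.42 CPM in LDHi replicates and 19.1, 3.46, 10.3 and 52.2 CPM in control replicates. All LDHi libraries lay under all control libraries, while LDHi+lactate replicate 2 fell just under LDHi replicate 3. In LDHi against control organoids the log2 fold change was -4.06 (SE 1.04, adjusted p = 0.0577), and with the replicate block it fell by 3.99 (SE 0.632, adjusted p = 0.00205, 1.80e-07 to 0.238 over 27 alternatives). The LDHi+lactate against LDHi value was 4.28 (SE 1.05, adjusted p = 0.601), and with the block Aldh1a7 rose by 3.90 (SE 0.622, adjusted p = 0.0257, 5.58e-06 to 1.0 over 27 alternatives). That last call did not hold in block fits without replicate 1, 2 or 4, with adjusted p of 0.129, 0.0940 and 0.0832, and held without replicate 3, with 0.0462.

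Aldh1a3, the most abundant dehydrogenase, was lower in LDHi than in control organoids in every replicate, by amounts that differed between replicates. It had 275, 94.8, 232 and 82.4 CPM in LDHi+lactate replicates 1 to 4, 32.4, 10.3, 73.6 and 52.3 CPM in LDHi replicates, and 283, 227, 165 and 68.7 CPM in control replicates. LDHi+lactate and LDHi libraries did not overlap, whereas LDHi replicate 3 exceeded control replicate 4. The log2 fold change in LDHi against control organoids was -2.15 (SE 0.596, adjusted p = 0.0756), and with the block Aldh1a3 fell by 2.20 (SE 0.560, adjusted p = 0.0200, 0.00384 to 0.459 over 27 alternatives). Without replicate 1, 2 or 3 the blocked adjusted p was 0.0954, 0.0565 and 0.0524. Against LDHi organoids, the value in LDHi+lactate organoids was 2.03 (SE 0.594, 95% interval 0.74 to 3.32, adjusted p = 0.853, and 0.183 with the block).

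Aldh1a2 passed in no comparison and in none of its alternatives. It had 1.24, 1.30, 2.06 and 1.86 CPM in LDHi+lactate replicates 1 to 4, 2.19, 1.79, 2.90 and 1.54 CPM in LDHi replicates, and 0.532, 0.718, 3.96 and 4.41 CPM in control replicates. The control libraries split by replicate number, with 1 and 2 under and 3 and 4 over all others. The log2 fold change was -0.18 in LDHi against control organoids (SE 0.578, 95% interval -1.43 to 1.08, adjusted p = 0.937).

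Of the hydroxylases, Cyp26c1 had the largest log2 fold change in LDHi against control organoids. Cyp26c1 had 0.420, 1.65, 0.206 and 0.203 CPM in LDHi+lactate replicates 1 to 4, 0.288, 0.474, 0.138 and 0.0768 CPM in LDHi replicates, and 2.52, 5.90, 3.15 and 1.90 CPM in control replicates. Every control library lay over every library of the other conditions, which held 2 counts in the lowest case. Cyp26c1 fell by 3.67 in LDHi against control organoids (SE 0.732, adjusted p = 0.0217), and was lower in 4 of 4 replicates. The call was lost without control replicate 3 (adjusted p = 0.0554), LDHi replicate 2 (0.0520), LDHi replicate 3 (0.0684) or LDHi replicate 4 (0.0610), and held in all 4 block fits without a replicate number. In LDHi+lactate against control organoids the log2 fold change was -2.42 (SE 0.674, adjusted p = 0.312), and with the block Cyp26c1 fell by 2.71 (SE 0.338, adjusted p = 0.00609, 5.36e-09 to 0.953 over 26 alternatives), which held without each replicate number in turn (0.0120 to 0.0414). Between LDHi+lactate and LDHi organoids it was 1.25 (SE 0.724, 95% interval -0.32 to 2.83, adjusted p = 0.9999).

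Cyp26b1 had 11.2, 2.92, 2.13 and 8.76 CPM in LDHi+lactate replicates 1 to 4, 4.49, 1.55, 1.89 and 14.9 CPM in LDHi replicates, and 18.0, 9.19, 8.91 and 41.0 CPM in control replicates. Replicates 1 and 4 were high in every condition, so the conditions overlapped although the control library was the highest of its replicate number in all 4. In LDHi against control organoids the log2 fold change was -1.76 (SE 0.780, adjusted p = 0.280), and with the replicate block Cyp26b1 fell by 2.01 (SE 0.302, adjusted p = 0.00158, 1.85e-11 to 0.597 over 27 alternatives). In LDHi+lactate against control organoids it was -1.62 (SE 0.775, adjusted p = 0.557), and with the block it fell by 1.59 (SE 0.297, adjusted p = 0.0160, 7.01e-07 to 0.955 over 27 alternatives). That call was lost without replicate 2 (0.0521) or replicate 3 (0.0838). In LDHi+lactate against LDHi organoids the blocked log2 fold change was 0.42 (95% interval -0.26 to 1.11, adjusted p = 0.681).

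Cyp26a1, the most abundant hydroxylase, had the smallest log2 fold change of the 3 in LDHi against control organoids. It had 25.7, 39.2, 28.7 and 14.9 CPM in LDHi+lactate replicates 1 to 4, 13.9, 31.9, 17.7 and 12.9 CPM in LDHi replicates, and 27.95, 54.5, 23.1 and 12.4 CPM in control replicates. Replicate 2 was the highest and replicate 4 the lowest in every condition, and the conditions overlapped. The log2 fold change in LDHi against control organoids was -0.63 (SE 0.429, adjusted p = 0.543), and with the block Cyp26a1 fell by 0.55 (SE 0.161, adjusted p = 0.0369, 0.00552 to 0.876 over 27 alternatives). The blocked call was lost without replicate 1 (0.190), replicate 2 (0.125) or replicate 3 (0.0877).

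Rdh10 and Dhrs3, which act on retinol and retinal in opposite directions, were both lower in LDHi organoids with small spread. Rdh10 had 44.8, 30.8, 40.5 and 33.5 CPM in LDHi+lactate replicates 1 to 4, 27.0, 24.7, 29.0 and 22.8 CPM in LDHi replicates, and 41.0, 36.4, 43.0 and 30.7 CPM in control replicates. All LDHi libraries lay under all libraries of the other conditions, which overlapped each other. The log2 fold change in LDHi against control organoids was -0.55 (SE 0.145, adjusted p = 0.0648), and with the block Rdh10 fell by 0.54 (SE 0.0786, adjusted p = 0.00135, 9.56e-08 to 0.360 over 27 alternatives). Relative to LDHi organoids, LDHi+lactate organoids were at 0.53 (SE 0.145, adjusted p = 0.773), and with the block Rdh10 rose by 0.52 (SE 0.0787, adjusted p = 0.0248, 4.12e-06 to 1.0 over 27 alternatives), a 1.44-fold difference. Without any 1 replicate number the blocked adjusted p was 0.169, 0.0611, 0.158 and 0.0678 for replicates 1 to 4. Against control, the LDHi+lactate organoids differed by -0.01 (SE 0.145, 95% interval -0.33 to 0.30).

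Dhrs3, which in many tissues answers retinoic acid with higher expression, had 5.55, 6.05, 4.02 and 3.85 CPM in LDHi+lactate replicates 1 to 4, 3.07, 2.69, 2.81 and 3.69 CPM in LDHi replicates, and 6.53, 6.64, 6.84 and 10.2 CPM in control replicates. The conditions formed 3 groups that did not overlap, with LDHi lowest and control highest. Dhrs3 fell by 1.30 in LDHi against control organoids (SE 0.224, adjusted p = 0.0133), to 0.406 of the control level, and was lower in 4 of 4 replicates. The call was lost without LDHi replicate 2 (adjusted p = 0.0521). The log2 fold change was 0.67 in LDHi+lactate against LDHi organoids (SE 0.222, adjusted p = 0.9999, and 0.221 with the block) and -0.63 in LDHi+lactate against control organoids (SE 0.219, adjusted p = 0.410, and 0.0887 with the block).

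**Figure D2:**
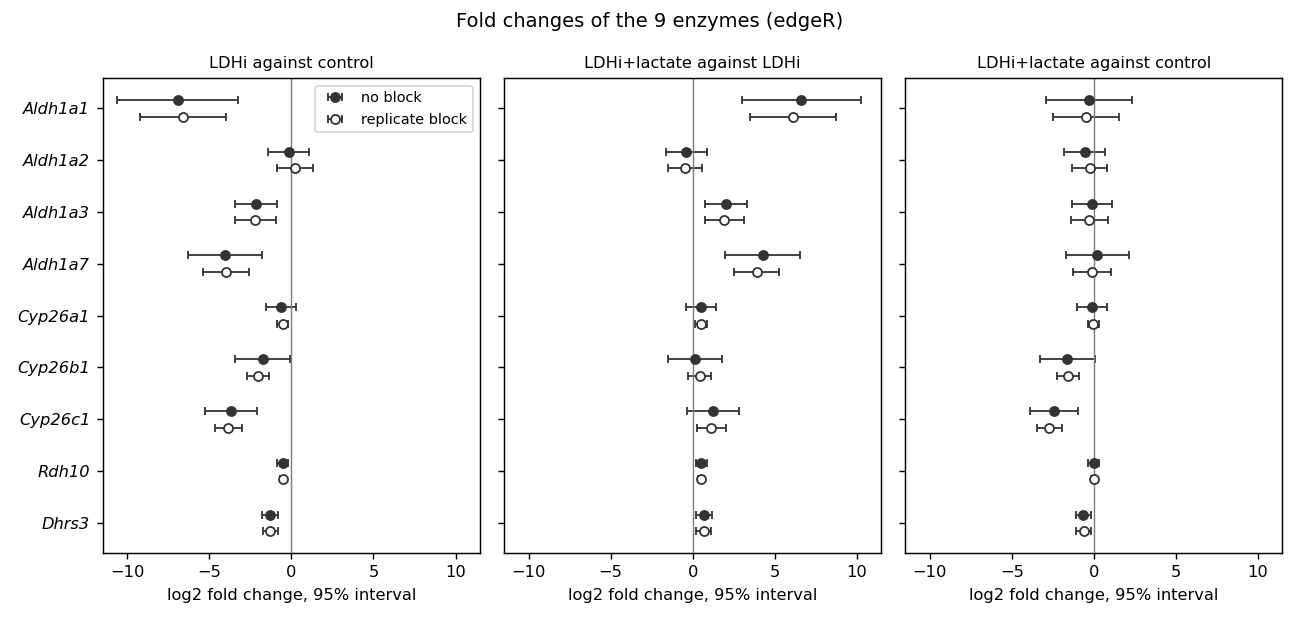
Log2 fold changes of the 9 members in the 3 comparisons, with 95% intervals from edgeR without a block (filled) and with the replicate block (open). The points for LDHi against control lie at or left of 0 except the blocked value of Aldh1a2 (0.21). Those of Aldh1a1, Aldh1a3 and Aldh1a7 lie right of 0 in LDHi+lactate against LDHi. In LDHi+lactate against control, Cyp26c1, Cyp26b1 and Dhrs3 lie furthest left of 0. There the intervals of Cyp26c1 and Dhrs3 exclude 0 in both fits, and that of Cyp26b1 only with the block.

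The first comparison asks what inhibition of lactate dehydrogenase does to the organoids. Of the 9 members, 3 fell (Aldh1a1, Cyp26c1 and Dhrs3) and 0 rose, where 2.18% of all genes tested fell and 0.909% rose. With the replicate block 8 fell, all but Aldh1a2, and 0 rose, where 10.1% of all genes fell and 9.85% rose. In 5 members (Aldh1a1, Aldh1a7, Cyp26c1, Rdh10 and Dhrs3) the LDHi libraries lay under all control libraries, which held for 5.41% of genes, and the reverse held for 4.26% of genes and 0 members. Of the 9, 7 were lower in all 4 replicate numbers, as were 17.9% of genes, while 18.6% of genes were higher in all 4. The median log2 fold change of the members was -1.76, beside 0.01 over all genes tested. The members and gene lists were chosen with earlier results of these data known. Here and in what follows, the shares of all genes are therefore a background and not a test. The count of 3 became 0 without LDHi replicate 2, and 1 without control replicate 3, LDHi replicate 3 or LDHi replicate 4.

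The second comparison asks what lactate does to organoids that already receive the inhibitor. In each replicate number 8 of the 9 members were higher in LDHi+lactate than in LDHi organoids. No member passed by edgeR without the block, nor did any of the 17721 genes, of which 603 had an unadjusted p under 0.05, whereas DESeq2 called 57 genes. With the block 2 members rose (Aldh1a7 and Rdh10), where 0.57% of genes rose and 0.0677% fell, and DESeq2 without a block also called 2 (Aldh1a1 and Aldh1a7). In 4 members the groups did not overlap (Aldh1a1, Aldh1a3, Rdh10 and Dhrs3), which held in that direction for 1.51% of genes and in the other for 0.587%. Of the 9, 7 were higher in all 4 replicate numbers, as were 11.6% of genes, while 10.2% were lower in all 4. The median log2 fold change was 0.67, beside -0.01 over all genes. Both comparisons use the same LDHi libraries, so a low value there enters both.

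The third comparison gives the distance that remained between LDHi+lactate and control organoids. The log2 fold changes of Aldh1a1, Aldh1a3, Aldh1a7, Cyp26a1 and Rdh10 lay between -0.30 and 0.21, those of Aldh1a2 and Dhrs3 were -0.56 and -0.63, and those of Cyp26b1 and Cyp26c1 were -1.62 and -2.42. Leaving out 1 library moved the value of Aldh1a1 between -1.61 and 1.27. No member passed without the block, where 0 genes passed in either direction, 1653 had an unadjusted p under 0.05 and DESeq2 called 236. With the block 2 members fell (Cyp26b1 and Cyp26c1), where 3.87% of genes fell and 4.18% rose. The LDHi+lactate libraries lay under all control libraries in 2 members (Cyp26c1 and Dhrs3) and in 2.11% of genes, and over them in 0 members and 2.12% of genes. Of the 9, 3 were lower in all 4 replicate numbers, as were 17% of genes, while 18.6% of genes were higher in all 4. The 95% intervals for Aldh1a1 (-2.93 to 2.33) and Aldh1a7 (-1.71 to 2.14) still allow a difference of over 2-fold in either direction.

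The makeup of the dehydrogenases varied between libraries of 1 condition. Aldh1a3 held 90.1%, 90.9%, 50.3% and 43.2% of the summed Aldh1a CPM per kb in LDHi+lactate replicates 1 to 4, 83.7%, 67.5%, 85.2% and 88.9% in LDHi replicates, and 78.2%, 95.7%, 80.8% and 20.99% in control replicates. Control replicate 4 stood apart, with 40.6% from Aldh1a1 and 35.7% from Aldh1a7. With the longest transcript as the length these shares were 56.1% and 23.5%, so the split between the 2 genes depends on the length used. The summed level was 66.0, 22.6, 99.97 and 41.3 CPM per kb in LDHi+lactate replicates, 8.38, 3.30, 18.7 and 12.7 in LDHi replicates, and 78.4, 51.3, 44.4 and 70.9 in control replicates. All LDHi sums lay under all others, and the sums of the other conditions overlapped. The sums include Aldh1a7 and describe RNA, not a capacity to make retinoic acid. Aldh1a2 held 5.32% to 23.9% of the sum in LDHi libraries, against 0.300% to 3.94% in control libraries, while its own level did not differ beyond its spread.

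**Figure D3:**
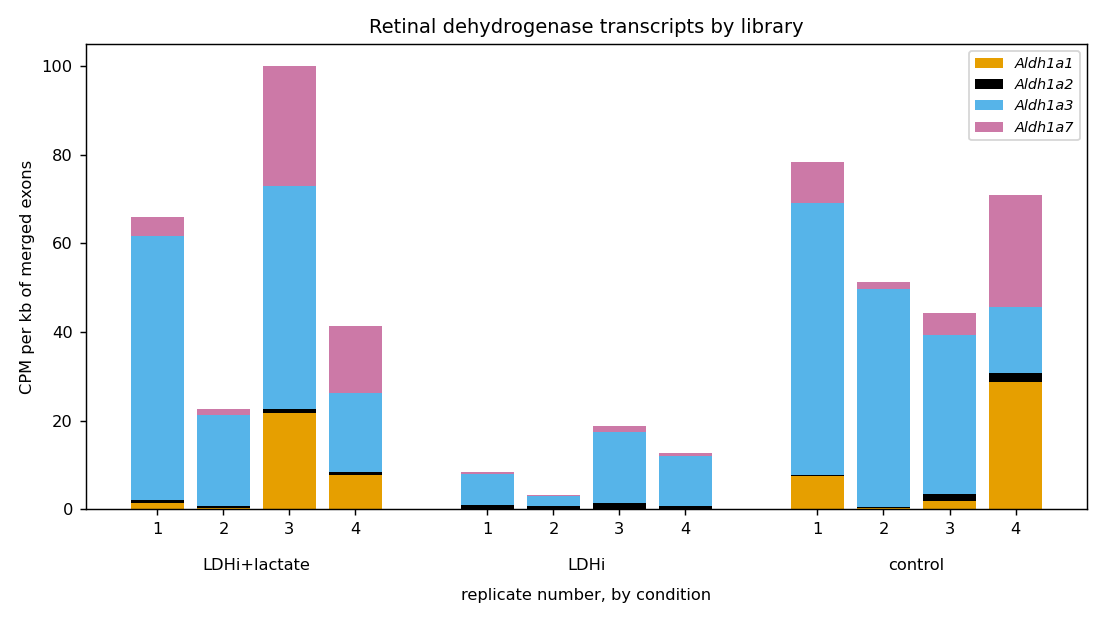
Summed CPM per kb of merged exons of the 4 Aldh1a genes in each library, stacked by gene, with replicates 1 to 4 of LDHi+lactate, LDHi and control from left to right. LDHi bars reach 3.30 to 18.7 CPM per kb and control bars 44.4 to 78.4, and control replicate 4 is the library where Aldh1a3 holds least (20.99%).

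Cyp26a1 held the largest part of the summed Cyp26 CPM per kb in every library but control replicate 4, where it held 41.7%. Cyp26c1 held 1.57%, 4.44%, 0.787% and 1.25% of the sum in LDHi+lactate replicates 1 to 4, 2.06%, 1.63%, 0.844% and 0.470% in LDHi replicates, and 7.63%, 10.4%, 11.9% and 7.23% in control replicates. The control shares lay over all others, and the shares of the other conditions overlapped. Cyp26b1 held 51.0% of the sum in control replicate 4 and 29.7% in LDHi replicate 4, its highest share in either condition. Cyp26c1 (chr19:37685581-37693398) and Cyp26a1 (chr19:37697798-37701536) lie on the same strand 4399 bases apart, and their blocked log2 fold changes in LDHi against control organoids were -3.85 and -0.55.

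**Figure D4:**
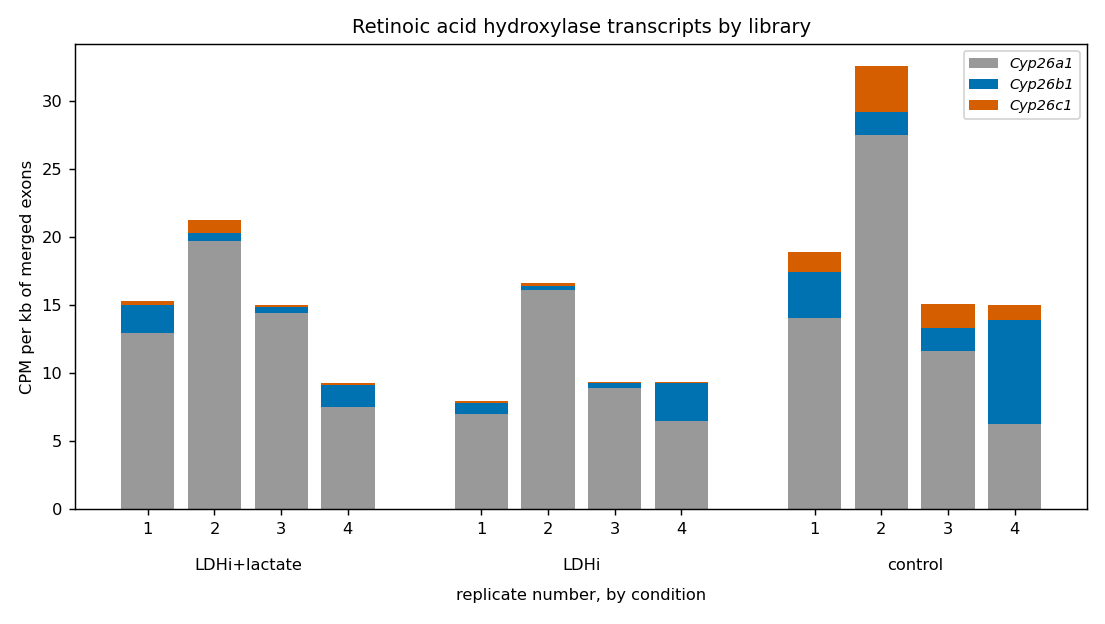
Summed CPM per kb of merged exons of the 3 Cyp26 genes in each library, stacked by gene, with replicates 1 to 4 of LDHi+lactate, LDHi and control from left to right. Cyp26a1 is the largest part of every bar but that of control replicate 4, and the Cyp26c1 part is 7.23% to 11.9% in control bars and 0.470% to 4.44% in the others.

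A difference between the sets of libraries was common among all genes, and of the members only Aldh1a7 and Cyp26c1 passed. Over all conditions, replicates 3 and 4 had more Aldh1a7 than replicates 1 and 2 (2.09 on the log2 scale, SE 0.562, adjusted p = 0.0180) and less Cyp26c1 (-1.46, SE 0.435, adjusted p = 0.0285), where 27.9% of all genes passed. The labelled cell type and the depth differ between the same sets and cannot be told apart from them. The effect of LDHi differed with the smallest p in Aldh1a2, with a log2 fold change of -0.94 in replicates 3 and 4 and 1.66 in replicates 1 and 2. That difference, -2.58, had an unadjusted p of 0.00048 and an adjusted p of 0.890 in edgeR's interaction test, in which 0 genes passed and 694 had an unadjusted p under 0.05. For Aldh1a3 the values were -0.91 in replicates 3 and 4 and -3.58 in replicates 1 and 2, and the difference of 2.68 also had an adjusted p of 0.890. Within the sets, Aldh1a1 was at -7.28 and -5.94, Cyp26c1 at -4.53 and -3.45, and Dhrs3 at -1.40 and -1.19 in replicates 3 and 4 and in replicates 1 and 2.

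Genes with the most similar profile were found as those with the smallest root mean square difference of centred log2 CPM over the 12 libraries, for the 8 members whose log2 CPM averaged 0 or more. Aldh1a1 was nearest to Aldh1a7 (1.19, beside its own root mean square of 3.24), Tbx5 (1.31) and Tbx2 (1.75), and Aldh1a7 to Tbx5 (0.863), Tbx2 (0.884) and Mab21l1 (1.15). Tbx5 and Tbx2 encode T-box factors of the dorsal optic cup. Tbx5 had 0.536, 0.702, 16.1 and 3.41 CPM in LDHi+lactate replicates 1 to 4, 0.0960, 0.0431, 0.414 and 0.307 CPM in LDHi replicates, and 4.94, 0.109, 3.57 and 9.98 CPM in control replicates, and like Aldh1a1 it was lowest in replicate 2 of the LDHi and control libraries. Tbx5 held only 2 to 9 counts in the LDHi libraries and 5 in the lowest control library, so its order there rests on few counts. Aldh1a3 was nearest to Pax2 (0.441, beside 1.37), a gene of the ventral optic cup and optic stalk, Abca4 (0.502) and Minar2 (0.531). Dhrs3 was nearest to Emilin1 (0.218, beside 0.572), Sertad4 and Lsp1, Rdh10 to Mettl7a1 (0.136, beside 0.308), Fam122a and Zfp385a, Cyp26a1 to Ctsl (0.210, beside 0.650), Cryab and Sparc, Cyp26b1 to Il1rapl1 (0.394, beside 1.39), Mc4r and Sncaip, and Aldh1a2 to Gm18329 (0.399, beside 0.828), Rpl32-ps and Ptprt. With a prior count of 0.5 in place of 2, Il1rapl1, Mc4r and Mab21l1 were no longer among the nearest 3, and Cyp26b1 was nearest to Sncaip (0.568), Rarb (0.605) and Foxc1 (0.617).

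**Figure D5:**
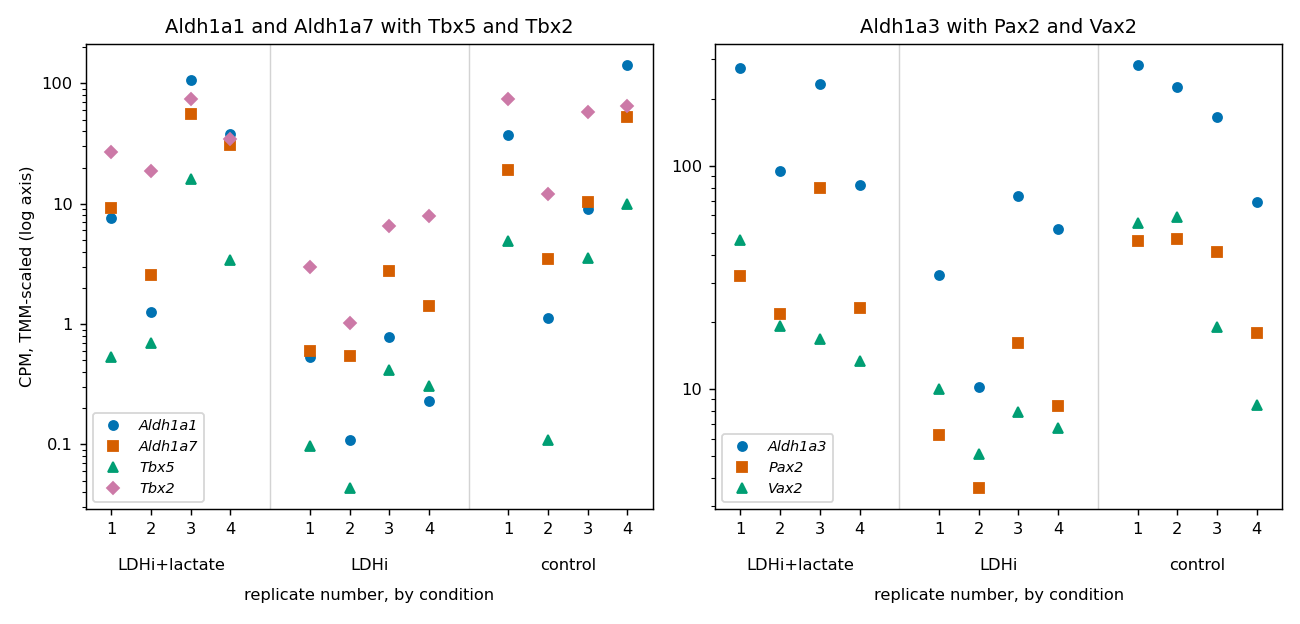
CPM on log axes in the 12 libraries of Aldh1a1 and Aldh1a7 with the dorsal genes Tbx5 and Tbx2 (left) and of Aldh1a3 with the ventral genes Pax2 and Vax2 (right), with replicates 1 to 4 of LDHi+lactate, LDHi and control from left to right. Tbx5, Tbx2, Pax2 and Vax2 are the 4 of 13 listed dorsoventral genes that fell with the block in LDHi against control organoids. Of the others, which are not shown, the T-box gene Tbx3 rose with the block and the rest did not pass. The 4 genes therefore do not stand for dorsal or ventral genes as a class. Vax2 was not among the 3 genes nearest to Aldh1a3. In the left panel replicate 2 is the lowest LDHi and the lowest control library for all 4 genes, for example with 0.0431 CPM of Tbx5 in LDHi replicate 2. The LDHi libraries held only 2 to 9 counts of Tbx5 and 5 to 22 of Aldh1a1, so their order rests on few counts.

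Of 13 dorsoventral optic cup genes, Tbx2 and Pax2 fell in LDHi against control organoids without the block (log2 fold changes of -3.53 and -2.16, adjusted p = 0.0217 and 0.0452) and 0 rose. With the block 4 fell (Tbx2, Pax2, Tbx5 and Vax2) and 1, the T-box gene Tbx3, rose (0.90, adjusted p = 0.00047). The rest of the 13 did not pass, and the median without the block was -0.06, beside 0.01 over all genes. Of all genes, 2.18% fell without the block, and 10.1% fell and 9.85% rose with it. With the block 2 of the 13 rose in LDHi+lactate against LDHi organoids, Tbx2 by 3.24 (adjusted p = 0.00813) and Pax2 by 2.14 (adjusted p = 0.0376), beside 0.57% of all genes. Of 27 other enzymes of retinoid metabolism 18 were tested, and 0 passed without the block. With the block Bco2, which cleaves carotenoids, and Rdh5, a retinol dehydrogenase, fell in LDHi against control organoids (-1.12 and -1.07, adjusted p = 0.0134 and 0.0215), beside 10.1% of all genes. The median of those 18 was -0.04. Among 13 tested of 14 aldehyde dehydrogenases of other classes 0 passed without the block, and with it Aldh6a1 fell by 0.39 (adjusted p = 0.00400) and Aldh16a1 rose by 0.37 (adjusted p = 0.00313), with a median of -0.04. Of all genes, 10.1% fell and 9.85% rose with the block.

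Other genes of the pathway carry, sense or answer retinoic acid. In LDHi against control organoids, of 15 tested among 16 carriers and receptors, 4 fell and 0 rose without the block, and 7 fell with it, with a median log2 fold change of -0.37. Of all genes tested, 2.18% fell without the block and 10.1% with it. Crabp1, which binds retinoic acid in the cytoplasm, fell by 1.25 (adjusted p = 0.0125), Stra6, which takes up retinol, by 2.13 (adjusted p = 0.0150) and Rara, a retinoic acid receptor, by 0.62 (adjusted p = 0.0146). Of 17 tested among 18 genes known to answer retinoic acid, 4 fell (Stra6, Hoxb1, Meis1 and Meis2) and 0 rose without the block, and 11 fell with it, with a median of -0.86, beside the same shares of all genes. The homeobox genes Meis2 and Meis1 fell by 0.97 and 1.92 (adjusted p = 0.00699 and 0.0133), and Rarb, a receptor that is itself a target, had a log2 fold change of -1.995 (adjusted p = 0.0589, and 0.000447 with the block). With the block 3 genes of that list rose in LDHi+lactate against LDHi organoids, Meis2 by 0.45, Meis1 by 1.18 and Stra6 by 1.40, beside 0.57% of all genes. In LDHi+lactate against control organoids 6 fell with the block, beside 3.87% of all genes. The lists share Stra6, Rarb and Crabp2, and Hoxb1 is named to complete a count, after its values were seen.

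Marker genes of some cell types passed in the same comparison, and those of others did not. Without the block 2.18% of all genes fell and 0.909% rose in LDHi against control organoids. Of 8 eye field markers 4 fell, and the summed level of the 8 was 599 to 667 CPM in LDHi libraries, against 849 to 1514 CPM in control libraries. Of 10 mesenchyme and mesoderm markers 5 fell, and the others did not pass, with log2 fold changes in either direction. The sums of all 10 were 114 to 167 CPM in LDHi libraries, against 170 to 561 CPM in control libraries. The highest sum was that of control replicate 4. Among the control libraries, that library had the most Aldh1a1, Aldh1a2, Aldh1a7, Cyp26b1 and Dhrs3, and the least Aldh1a3, Cyp26a1, Cyp26c1 and Rdh10. It also had the lowest eye field sum (849 CPM). Of 6 markers of pluripotent cells 4 rose, with sums of 514 to 953 CPM in LDHi libraries, against 206 to 435 CPM in control libraries. LDHi+lactate libraries held 763 to 1080 CPM of eye field, 140 to 169 CPM of mesenchyme and mesoderm and 439 to 908 CPM of pluripotent markers. None of these markers was at 0 in all libraries. Their part in the changes of the enzymes was not tested. Of 6 surface ectoderm and lens markers only 2 passed the filter on low counts, and the sum of the 6 was 0.816 to 1.98 CPM in LDHi libraries, against 1.11 to 5.22 CPM in control libraries. Of 5 telencephalon, 6 midbrain and hindbrain, 6 endoderm and 4 neural crest markers, 0 passed without the block in LDHi against control organoids. With the block 3 endoderm markers rose, 1 midbrain and hindbrain marker fell and 2 rose, and 0 telencephalon or neural crest markers passed.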

How the data were processed

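Libraries were made with a TruSeq mRNA kit and sequenced as single reads of 50 bases. Tools listed in the submitters' processing notes are HTSeq 0.6.1p1, cutadapt 1.13, DESeq2 1.14.1 and STAR, with mm10 as the genome build. The values used here are the raw counts of reads for each gene that the authors deposited. For the strand setting and the annotation release, no source used here gives a value. The members and gene lists were chosen with earlier results of these data known.

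Counts were tested with edgeR 4.0.16 (quasi-likelihood, TMM scaling, filterByExpr, R 4.3.3) over all 12 libraries, with Benjamini-Hochberg adjustment over 17721 genes and a threshold of 0.05. Libraries with the same replicate number deviated together (correlations of 0.329 to 0.634, against -0.544 to 0.197 between different numbers), and the study describes 4 independent experiments, so a second edgeR fit took the replicate number as a blocking factor. DESeq2 1.42.0 was an alternative. Scripts were tested on simulated data. Besides the 9 members, Rax and Six3, the text names at most 4 genes of each list by adjusted p and the 3 genes nearest to each member. Gene positions and transcripts came from GENCODE M21, to which 54165 of 54232 IDs matched.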

Additional observations from a re-analysis of the deposited data

Results flagged for a closer look

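In 27 sets of 4 libraries (9 genes in 3 conditions), 2 had a library whose gap to its nearest neighbour exceeded Dixon's 95% critical share of the whole range, where chance gives about 1 in 20. Cyp26c1 had 1.65 CPM in LDHi+lactate replicate 2, with a gap of 0.850 of the range, and Dhrs3 had 10.2 CPM in control replicate 4, with a gap of 0.917.

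In 4 of 27 pairs of a gene and a comparison, the log2 ratio had one sign in both replicates 3 and 4 and the opposite sign in both replicates 1 and 2. The share of all genes with this pattern was not counted, so the 4 cases are not read as a trait of these genes. The difference, replicates 3 and 4 minus replicates 1 and 2, was -2.58 for Aldh1a2 in LDHi against control and -2.11 for Aldh1a2 in LDHi+lactate against control organoids. It was 0.89 for Aldh1a3 and 0.64 for Cyp26a1 in LDHi+lactate against control organoids. By edgeR's interaction test none passed after adjustment.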

How the results depend on the processing

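The number of members called lower in LDHi against control organoids, 3 by edgeR without a block, was 5 with no filter on low counts, 1 with at least 10 counts in every library (where Aldh1a1 and Cyp26c1 were not tested), 8 with the replicate block, 5 with the set as a term, 0 in replicates 1 and 2 alone, 1 in replicates 3 and 4 alone, 6 by DESeq2 and 8 by DESeq2 with the replicate block. Leaving out 1 library gave 0 to 5, and the replicate block without 1 replicate number gave 6 to 8. In LDHi+lactate against LDHi organoids, 0 members were called higher, 2 with the replicate block, 2 by DESeq2, 4 by DESeq2 with the replicate block, and 0 to 1 with the block and 1 replicate number left out. In LDHi+lactate against control organoids, 0 were called lower, 2 with the replicate block, 1 by DESeq2, 3 by DESeq2 with the replicate block, and 1 to 2 with the block and 1 replicate number left out. The cause was not tested, apart from the genes that a filter removed. Of 722 values of single genes under the alternatives, 646 stayed on their side of the threshold, 19 lost the call and 57 gained it, and 46 changed sign, all of them values that did not pass. Aldh1a1 and Cyp26c1 rest on as few as 5 and 2 counts in a library. The replicate block changed no call of a member beyond those given in the report.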
